A study of Homo sapiens with 6 samples.

Results

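Glucose transport and glycolysis in LX-2 cells given BMP9 were described by 34 genes, from the glucose carriers of the cell membrane to the enzymes that decide the fate of pyruvate. Members were taken by name, and each was read from the probe sets that the platform annotation assigns to that gene and no other. Such probe sets existed for 31 of the 34 genes, 94 in all, out of 18132 genes and 44988 probe sets with a single gene symbol. LX-2 is an immortalised human hepatic stellate cell line. The 6 samples were starved of serum for 12 h, after which 3 were treated with recombinant human BMP9 (50 ng/ml) and 3 with none (control, 0 ng/ml) for another 24 h. Each sample was hybridised to 1 Affymetrix 3′ array, and the study asked what BMP9 does to these cells. Titles call the samples biological replicates without naming separate cultures, so each p-value rests on the spread between the 6 samples, which may be technical.

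Glycolysis splits glucose into pyruvate in the cytosol and yields ATP without oxygen. Hexokinase, phosphofructokinase and pyruvate kinase catalyse its irreversible steps, and the transporters that admit glucose set how much sugar is offered to them. Pyruvate is then either reduced to lactate or passed to the mitochondria, a choice governed by the pyruvate dehydrogenase kinases. Stellate cells that turn into myofibroblasts are known for raising glucose uptake and glycolysis, and many of the genes are classical targets of the hypoxia-inducible factor HIF.

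With BMP9, 1 member was lower, SLC2A1, which encodes GLUT1, the carrier for basal glucose uptake in most cells. It fell 1.4-fold, by 0.48 on the log2 scale (SE 0.081, n = 3 arrays per group, limma adjusted p = 0.027). No other member passed in limma, and 0 rose. PKM, PDK4, PGK1 and PDK2 had the largest positive differences, between 0.21 and 0.43, with all BMP9 arrays above all control arrays. The median difference of the 31 members was 0.047, beside 0.014 over all genes, and 19 were positive and 12 negative. Less RNA per cell and fewer cells that express a gene cannot be told apart in such samples.

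Promoter sequence is shown for the member that fell and for the 2 payoff-phase enzyme genes with the largest positive differences, because the genes are textbook HIF targets. The windows are the 250 bases before the first listed start of each gene in RefSeq on GRCh38.p14, 5′ to 3′ on the gene's strand. Capitals mark the core of the hypoxia response element, ACGTG or GCGTG on either strand. The SLC2A1 window is chr1:42958869-42959118 on the minus strand, the PGK1 window chrX:78103998-78104247 on the plus strand and the PKM window chr15:72231191-72231440 on the minus strand.
SLC2A1: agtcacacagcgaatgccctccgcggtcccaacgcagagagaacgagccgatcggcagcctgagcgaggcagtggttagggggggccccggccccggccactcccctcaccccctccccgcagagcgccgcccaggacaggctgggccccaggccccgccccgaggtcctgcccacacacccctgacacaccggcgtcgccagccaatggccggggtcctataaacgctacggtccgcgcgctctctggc
PGK1: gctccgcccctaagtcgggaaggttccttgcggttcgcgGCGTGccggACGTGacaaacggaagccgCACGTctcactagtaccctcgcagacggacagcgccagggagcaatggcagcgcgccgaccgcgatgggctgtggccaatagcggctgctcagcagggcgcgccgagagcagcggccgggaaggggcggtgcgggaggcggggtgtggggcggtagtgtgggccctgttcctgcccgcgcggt
PKM: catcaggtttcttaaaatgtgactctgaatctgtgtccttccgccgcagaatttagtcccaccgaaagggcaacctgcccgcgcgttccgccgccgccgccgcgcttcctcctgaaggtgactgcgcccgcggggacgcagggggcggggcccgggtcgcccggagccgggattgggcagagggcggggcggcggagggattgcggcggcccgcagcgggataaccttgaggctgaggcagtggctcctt
PGK1 held 3 cores and the windows of SLC2A1 and PKM held 0, which says only that these letters are not in these 250 bases. RefSeq promoters were matched for 30 of the 34 genes, 59 windows in all, and 52.5% of those windows held a core, beside 43.2% of all 35116 promoter windows. Counted by gene, with a match in any of its windows, 76.7% of the 30 members held a core, beside 47.4% of 27305 genes. Members had more windows per gene (59 for 30) than all genes, so the shares by gene are not like for like. The palindrome GGCGCC, a GC-rich element known to bind SMAD1 and SMAD5 and sharing no full core with the motif above, was in 27.1% of the members' windows and 16.4% of all windows. A match is a description of the letters and not a bound site.

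Levels are given as log2 values of a probe set, and a difference is BMP9 minus control. Unless another is named, a gene is represented by its probe set with the highest mean over the 6 arrays, chosen without regard to group. Across all genes 0.684% passed the limma test in either direction and 0.452% passed as lower, so 1 of 31 members lower is a single call. Unadjusted p-values under 0.05 were given by 12.9% of all genes and by 5 of 31 members. Groups that did not overlap were found in 18.8% of all genes and in 8 of 31 members, 5 higher and 3 lower with BMP9. Over all probe sets 0.436% passed, and of the members' 94 probe sets 1 did, the brightest of SLC2A1.

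The arrays had nearly equal medians, 3.55 to 3.57, and correlated at 0.993 to 0.995 within and 0.991 to 0.993 between groups. Spiked-in array controls were lower on the BMP9 arrays: the mean of the poly-A controls was 5.67 to 5.78 on control arrays and 5.05 to 5.44 on BMP9 arrays. Scaling to them moved the median of all genes to 0.49, and scaling to the hybridisation controls moved it to 0.23, so the differences here are relative to the deposited normalisation. Of 10 stellate markers 0 passed, with 6 positive and 4 negative differences and 1 at an unadjusted p under 0.05. That was VIM, which went from 11.62 to 11.25 (limma adjusted p = 0.0786), and 1 of these markers passed as lower with a minimum mean of 5 or 7 or the trend and robust prior. Those settings called 165 of 6744, 150 of 1216 and 182 of 18132 genes lower, beside 82 of 18132 as reported. COL1A1 stood at 9.73 and 9.79 and the other 8 differed by -0.017 to 0.21, whereas ACTA2 (3.90 in control) and LUM are not known to lie above background, since the table holds no detection calls. Of 18 markers of hepatocytes, endothelium, leukocytes and bile duct cells 0 passed the limma test at an adjusted p under 0.05 (3 at an unadjusted p under 0.05, namely SERPINA1, ALB and EPCAM, named after their values were seen).

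**Figure D1:**
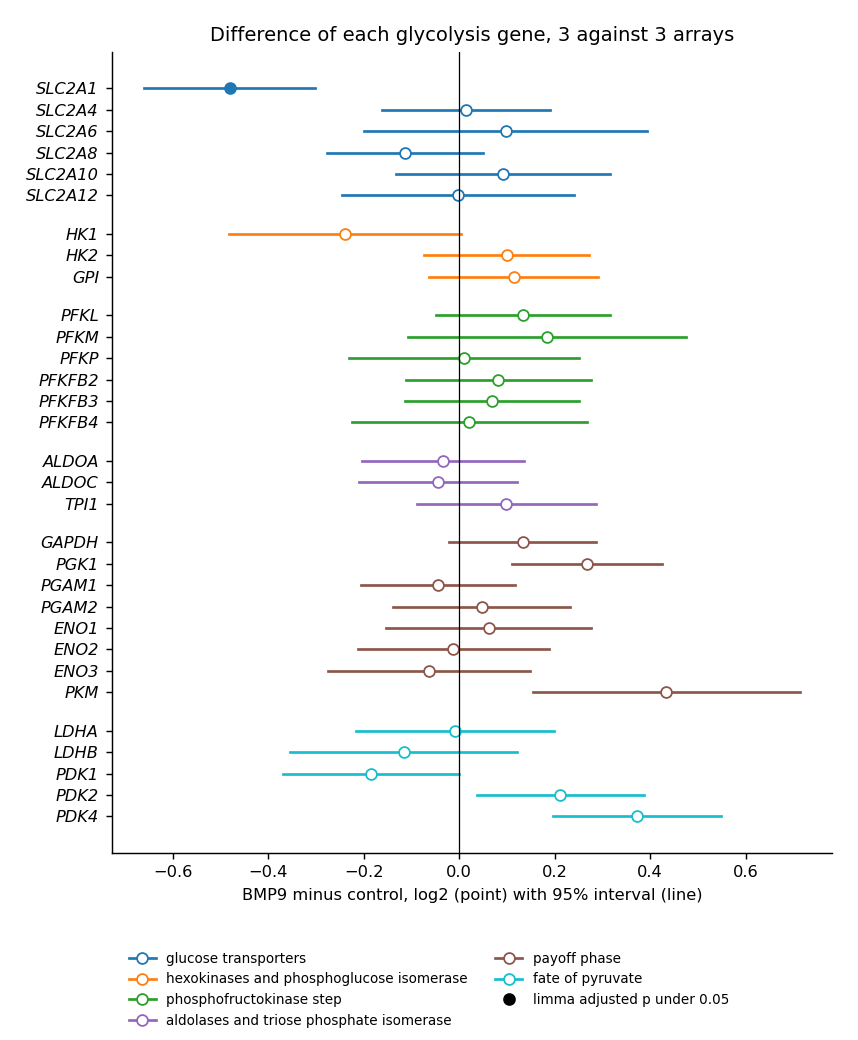
BMP9 minus control on the log2 scale (horizontal axis, point) with its 95% interval (line) for each of the 31 measured genes, coloured by role; a filled point passed at a limma adjusted p under 0.05. SLC2A1, at -0.48, is the only filled point, and the intervals of PKM, PDK4, PGK1 and PDK2 lie above 0 before adjustment.

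Glucose transporters of the SLC2A family carry sugars down their gradient. SLC2A1 read 7.03, 7.16 and 7.0 on control arrays 1 to 3 and 6.68, 6.56 and 6.51 on BMP9 arrays 1 to 3. Every BMP9 value lay below every control value, and the gap between the nearest arrays was larger than the SD of either group (7.06 ± 0.084 against 6.58 ± 0.083, SD, n = 3). Its 95% interval was -0.66 to -0.30.

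SLC2A1 has 3 further probe sets. One that shares probes between transcripts read 6.96, 6.81 and 6.72 in control and 6.64, 6.68 and 6.52 with BMP9, a difference of -0.22 (SE 0.09), with a limma adjusted p = 0.388 in the fit over probe sets. Its groups were apart too, but by less. A dimmer probe set read 5.03, 4.79 and 5.01 in control and 4.88, 4.47 and 4.29 with BMP9, a difference of -0.40 (SE 0.14), with overlapping groups. The dimmest stood at 2.38 in both groups and is not known to lie above background. With the mean over all 4 probe sets the difference was -0.27 and did not pass (limma adjusted p = 0.210). The call was also lost whichever array was left out (limma adjusted p 0.051 to 0.137), with differences of -0.53 to -0.43, close to the value over all arrays. It was lost too when arrays were scaled to the spiked-in controls, with a difference of -0.27 for hybridisation and -0.0056 for poly-A controls.

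SLC2A8, an intracellular glucose carrier with 1 probe set, read 5.69, 5.67 and 5.74 in control and 5.53, 5.58 and 5.65 with BMP9. Every BMP9 value lay below every control value, the nearest pair being 5.65 and 5.67, and the difference of -0.11 (SE 0.073) did not pass (limma adjusted p = 0.557). SLC2A4, the insulin-responsive carrier of muscle and fat, differed by 0.014 (SE 0.079) in its brightest probe set, at 7.23 in control. Its other probe sets, at 4.29, 4.18 and 3.70 in control, differed by 0.15, -0.13 and 0.13, and none passed. In the one at -0.13 all BMP9 arrays were lower, and these dim sets are not known to lie above background. SLC2A6 differed by 0.097 (SE 0.13), with an SD of 0.29 among its BMP9 arrays, and SLC2A10 by 0.092 (SE 0.10). SLC2A12 stood at 3.06 in both groups. SLC2A3, the high-affinity carrier GLUT3, had 5 probe sets, all annotated to SLC2A14 as well, and so could not be read on its own.

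The first enzymes trap glucose in the cell. HK1, the widely expressed hexokinase, read 4.91, 5.28 and 5.22 in control and 5.02, 4.76 and 4.90 with BMP9. The groups overlapped because control array 1 was low, and the difference of -0.24 (SE 0.11) did not pass (limma adjusted p = 0.397). Its other probe sets differed by -0.023, 0.16 and 0.15 and stood at only 3.64, 2.89 and 2.87 in control. In the last 2 all BMP9 arrays were higher, but these read nearly alike on every array. Without detection calls, readings this dim cannot settle the direction of HK1. HK2, the inducible hexokinase, differed by 0.099 (SE 0.077) in one probe set and by 0.14 (SE 0.081) in the other, which had all BMP9 arrays above control. GPI, which turns glucose 6-phosphate into fructose 6-phosphate, read 4.23, 4.35 and 4.28 in control and 4.51, 4.32 and 4.37 with BMP9, a difference of 0.11 (SE 0.08) with overlap.

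All 6 genes of the phosphofructokinase step had positive differences, 0.0096 to 0.18, and 0 passed. Over all genes 9915 of 18132 had positive differences. PFKM (3.29 in control), PFKP (3.52) and PFKFB2 (3.94) are not known to lie above background. PFKL, the liver-type subunit, read 6.31, 6.13 and 6.26 in control and 6.43, 6.28 and 6.40 with BMP9, a difference of 0.13 (SE 0.082, limma adjusted p = 0.528). PFKL turned negative, at -0.19, once probe sets whose probes can bind other transcripts were dropped. PFKM, the muscle-type subunit, read 3.54, 3.29 and 3.05 in control and 3.26, 3.56 and 3.61 with BMP9. These values overlapped, and the difference of 0.18 had an SE of 0.13. PFKP, the platelet-type subunit, differed by 0.0096 (SE 0.11), and its sign changed under quantile normalisation (-0.0015) and median centring (-0.0023).

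The PFKFB enzymes make and degrade fructose 2,6-bisphosphate, the activator of phosphofructokinase. PFKFB2 differed by 0.082 (SE 0.087) and PFKFB3, the form with the highest kinase activity, by 0.069 (SE 0.082). PFKFB4 differed by 0.021 (SE 0.11) and turned negative when control array 1 or BMP9 array 1 was left out. Its probe sets disagreed. One went from 4.89 ± 0.031 to 4.66 ± 0.10 and another from 3.83 ± 0.057 to 4.11 ± 0.089 (SD, n = 3), both without overlap, in opposite directions and neither past the threshold in the fit over probe sets (limma adjusted p = 0.327 and 0.223).

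**Figure D2:**
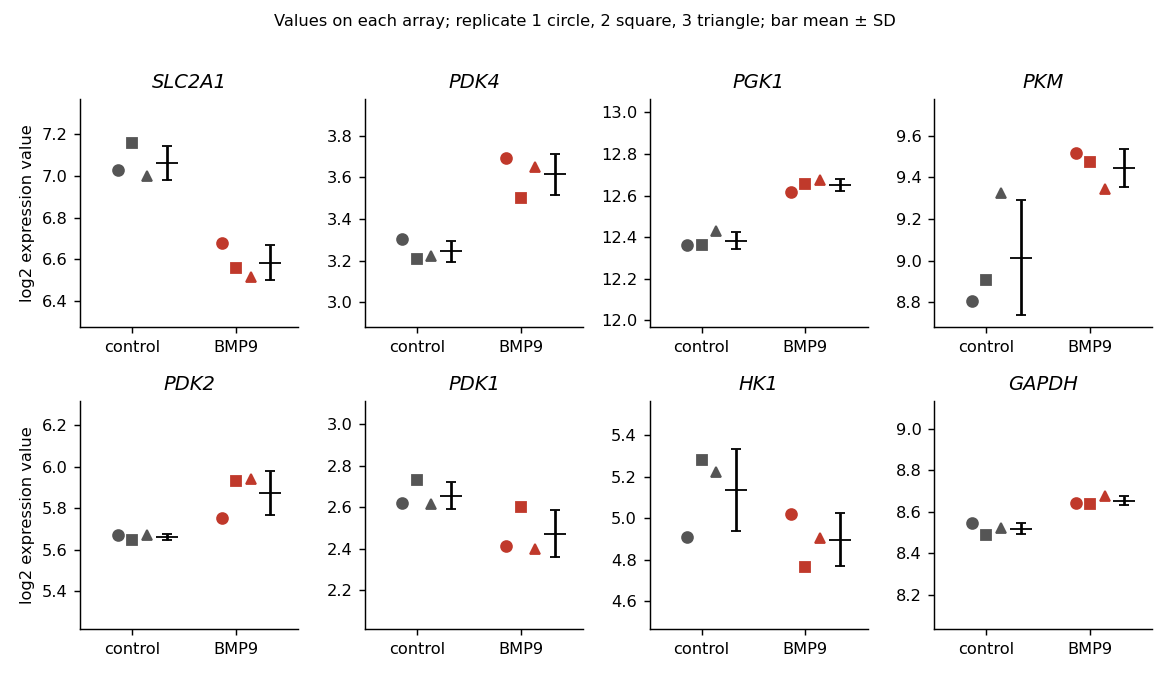
Log2 expression value (vertical axis, each panel spanning the same range) on every control and BMP9 array for 8 members, with mean ± SD of 3 arrays beside the points. SLC2A1 is lower on every BMP9 array; PKM control array 3, at 9.33, lies close to the BMP9 arrays.

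ALDOA and ALDOC, which cleave the 6-carbon sugar, stood at 7.16 and 8.08 in control and differed by -0.035 (SE 0.076) and -0.045 (SE 0.074). Among the other ALDOC probe sets, one differed by 0.23 with all BMP9 arrays higher and another by -0.28 with overlap, and neither passed. TPI1, which interconverts the resulting trioses, differed by 0.098 (SE 0.084). For the brightest probe sets of these genes the 95% intervals lay within -0.21 and 0.29. That of the ALDOC probe set at -0.28 was wider, -0.51 to -0.053.

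The payoff phase makes ATP. Its kinase PGK1, which passes phosphate from 1,3-bisphosphoglycerate to ADP, read 12.36, 12.36 and 12.43 in control and 12.62, 12.66 and 12.68 with BMP9. The groups were clearly apart, with SDs of 0.040 and 0.030 (n = 3). The difference of 0.27 (SE 0.071), or 1.2-fold, did not pass over all genes (limma adjusted p = 0.151). It passed when genes with a mean under 5 or under 7 were left out (limma adjusted p = 0.0342 and 0.0034) and with an intensity trend and robust prior (limma adjusted p = 0.0014). Those settings also called more of all genes higher, 102 of 6744, 97 of 1216 and 103 of 18132, beside 42 of 18132 as reported.

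Of the 9 PGK1 probe sets, the second brightest read 10.10, 10.16 and 10.16 in control and 10.39, 10.41 and 10.41 with BMP9, a difference of 0.26 (SE 0.074). Others at a middle level differed by 0.25 (SE 0.079) and 0.19 (SE 0.087), again without overlap. A pair at the same level differed by 0.047 and -0.048 with overlap, and 3 probe sets stood near 2. Averaging all 9 gave 0.12 (limma adjusted p = 0.429).

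PKM encodes pyruvate kinase M, whose product ends glycolysis by making pyruvate. The gene read 8.81, 8.90 and 9.33 in control and 9.52, 9.47 and 9.35 with BMP9. The groups were apart, but only just, since control array 3 (9.33) lay close under BMP9 array 3 (9.35). The difference of 0.43 (SE 0.13), or 1.35-fold, did not pass (limma adjusted p = 0.189). Without control array 3 it was 0.59 and passed (limma adjusted p = 0.0313). With any other array left out it was 0.33 to 0.48 and did not pass (limma adjusted p 0.313 to 0.400). The mean over its probe sets gave 0.27 and did not pass (limma adjusted p = 0.281). PKM passed when genes with a mean under 7 were left out (limma adjusted p = 0.0186), where 97 of 1216 genes passed as higher.

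Another PKM probe set read 8.10, 8.05 and 8.20 in control and 8.58, 8.43 and 8.36 with BMP9, a difference of 0.34 (SE 0.087, limma adjusted p = 0.170 in the fit over probe sets). A dimmer one, not known to lie above background, read 3.96, 3.87 and 4.02 in control and 4.52, 4.27 and 4.30 with BMP9. Its difference was 0.42 (SE 0.092, limma adjusted p = 0.107). Both were without overlap, whereas the sets at 6.33 and 6.31 in control overlapped (0.21 and 0.22), and the last stood at 2.5. The brightest PKM probe set is of the kind whose probes can bind other transcripts, and the brightest without such probes differed by 0.22 (SE 0.15). None of the labels says which PKM splice form a probe set reads.

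**Figure D3:**
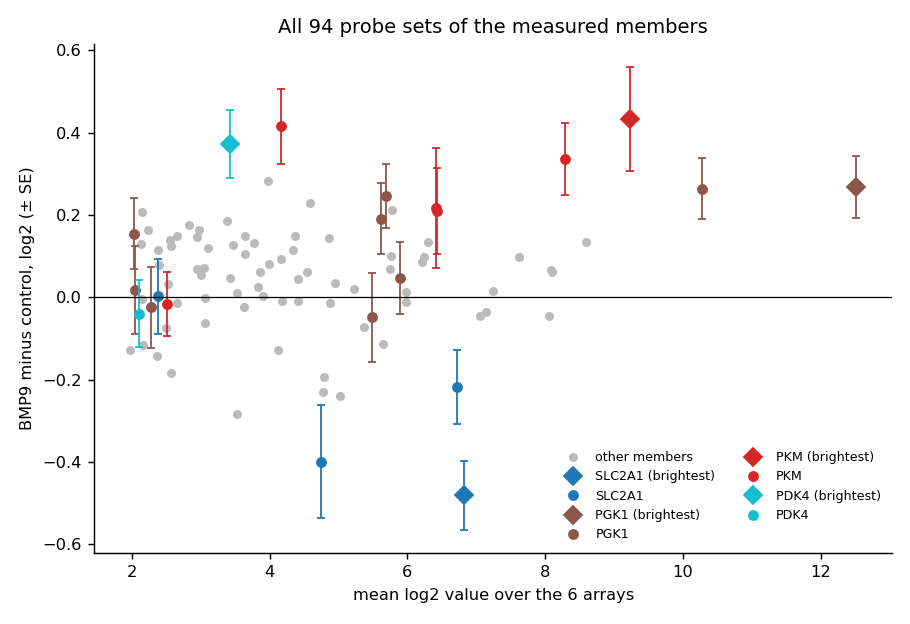
Difference between groups (vertical axis, log2, with SE for coloured points) against mean log2 value over the 6 arrays (horizontal axis) for all 94 probe sets of the members. The 3 brighter SLC2A1 probe sets lie below 0, 5 of 6 PKM probe sets lie above 0.2, and the dimmest probe sets of PKM, PDK4 and SLC2A1 lie near 0.

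GAPDH, the oxidising enzyme that is often used as a loading control, read 8.55, 8.49 and 8.52 in control and 8.64, 8.64 and 8.68 with BMP9. Its groups were apart, and the difference of 0.13 (SE 0.069) did not pass (limma adjusted p = 0.457). The array also carries 3 quality-control probe sets for GAPDH, which were kept out of the gene comparison. The brightest of them read 9.94, 9.97 and 9.97 in control and 10.05, 9.93 and 9.97 with BMP9, a difference of 0.022 (SE 0.076), and the others differed by 0.093 and -0.065. Taken by brightness alone that probe set would represent GAPDH.

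The brightest probe sets of the mutases and enolases had differences close to 0. PGAM1 differed by -0.044 (SE 0.073), the muscle form PGAM2 by 0.047 (SE 0.083), and ENO1, the main enolase, by 0.062 (SE 0.096). ENO2, the neuronal form, differed by -0.012 (SE 0.090) and ENO3, the muscle form, by -0.063 (SE 0.095). Many abundant glycolytic messages have processed pseudogenes, and 10 of the 31 brightest probe sets are of a kind that can bind other transcripts. By their suffix, those of PFKL, ALDOA, TPI1, GAPDH, PGAM1, ENO1, PKM and LDHA are of one such kind (8), and those of HK1 and GPI are of the other (2). Their values may therefore hold signal from other copies, which was not tested.

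Pyruvate dehydrogenase kinases switch off the entry of pyruvate into the citric acid cycle. PDK4, the form induced by fasting, read 3.30, 3.21 and 3.22 in control and 3.69, 3.50 and 3.65 with BMP9. All BMP9 arrays were higher, and the difference of 0.37 (SE 0.079), or 1.29-fold, did not pass (limma adjusted p = 0.0786). Its second probe set, at 2.12 in control, differed by -0.039 (SE 0.081), and neither is known to lie above background.

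PDK2, a broadly expressed form, read 5.67, 5.65 and 5.67 in control and 5.75, 5.93 and 5.94 with BMP9. Its groups were apart with BMP9 array 1 nearest to control, and the difference of 0.21 (SE 0.079) did not pass (limma adjusted p = 0.299). Its other probe sets differed by 0.044 and 0.15 with overlap. PDK1, the form induced in hypoxia, read 2.62, 2.73 and 2.61 in control and 2.41, 2.60 and 2.40 with BMP9. Every BMP9 value was lower, BMP9 array 2 (2.60) only just, at a level where signal above background is not known, and the difference of -0.18 (SE 0.083) did not pass (limma adjusted p = 0.389).

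LDHA, which reduces pyruvate to lactate, differed by -0.0082 (SE 0.093) and LDHB, the form that favours the reverse reaction, by -0.12 (SE 0.11). LDHA stood at 4.18 and LDHB at 2.21 in control, so neither is known to lie above background. The lactate carriers SLC16A1 and SLC16A3 were named by no probe set in the annotation used and were not analysed here.

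**Figure D4:**
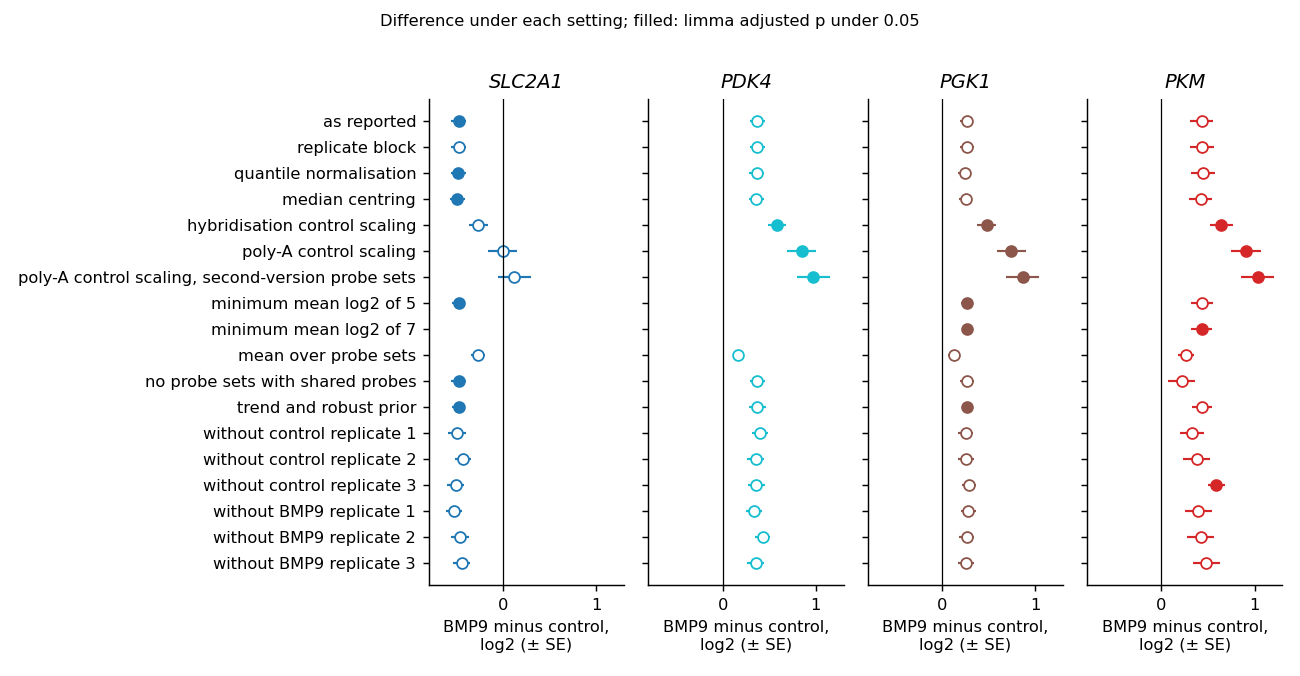
BMP9 minus control (horizontal axis, log2, with SE) of SLC2A1, PDK4, PGK1 and PKM under each processing setting (vertical axis); a filled point had a limma adjusted p under 0.05, and a missing point means that the gene was below the minimum. SLC2A1 moves from -0.48 to 0.12 and PKM from 0.43 to 1.03 with scaling to the second version of the poly-A control probe sets.

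The rest of glucose metabolism was read from 8 lists with 86 genes, 77 of them measured. Of these, 1 passed and was lower, HIF1A, the oxygen-regulated subunit of HIF. HIF1A read 8.46, 8.51 and 8.45 in control and 7.87, 7.90 and 7.84 with BMP9. The groups were far apart, and it fell by 0.61 (SE 0.070, limma adjusted p = 0.00327), a call kept whichever array was left out and lost with either poly-A scaling (-0.13 and -0.0050). Of the other measured regulators of glucose use 0 passed in limma, with 2 at an unadjusted p under 0.05, TXNIP and PRKAA1. TXNIP, which lowers glucose uptake and is induced by glucose, read 6.53, 6.73 and 6.69 in control and 6.40, 6.35 and 6.42 with BMP9, a difference of -0.26 (SE 0.079, limma adjusted p = 0.211) that shrank to -0.0049 without probe sets that share probes.

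HIF targets outside glycolysis gave 0 calls among 14 measured genes at a limma adjusted p under 0.05 and 3 at an unadjusted p under 0.05, beside 12.9% of all genes, with a median of -0.019. Groups were apart in 5 of the 14 genes, all lower. Over all genes they were apart as lower in 1539 of 18132, and in 18.8% in either direction. With genes of a mean under 5 left out, 1 of the 6 HIF targets still tested passed as lower, beside 165 of 6744 genes. DDIT4, an inhibitor of mTOR signalling, differed by -0.43 (SE 0.10, limma adjusted p = 0.108) and KDM3A, a histone demethylase, by -0.32 (SE 0.086, limma adjusted p = 0.156). DDIT4 stood at 3.64 in control and is not known to lie above background. Of the HIF targets among the members, SLC2A1 (-0.48) passed as lower. PGK1 (0.27) and PDK1 (-0.18, at a level not known to lie above background) did not pass. Whether the lower HIF1A reading bears on any of these genes was not tested.

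The remaining lists also had 0 genes past the limma threshold, with 4 at an unadjusted p under 0.05 (PGD, G6PC3, UGP2 and GYG1). Medians were 0.078 for 16 other sugar transporters and glycolytic isozymes, 0.090 for 9 genes of pyruvate entry into mitochondria, and 0.073 for 7 of the pentose phosphate pathway. They were 0.074 for 6 of gluconeogenesis, -0.041 for 8 of glycogen and 0.12 for 7 of the hexosamine and serine branches. In each list the 2 genes with the smallest p are named. SLC2A13, a myo-inositol carrier, differed by 0.21 (SE 0.098) and PDK3 by -0.14 (SE 0.072). PDHA1, the catalytic subunit that the PDK enzymes phosphorylate, differed by 0.14 (SE 0.074) and its partner DLD by 0.14 (SE 0.093). PGD, of the oxidative pentose branch, differed by 0.28 (SE 0.12) and TKT, of the non-oxidative branch, by -0.19 (SE 0.091). Among glucose 6-phosphatase genes, G6PC3 differed by 0.21 (SE 0.088) and G6PC1 by 0.18 (SE 0.11). UGP2, which makes UDP-glucose, differed by 0.37 (SE 0.10) and the glycogen primer gene GYG1 by -0.21 (SE 0.093). SHMT2 and UAP1, of serine and hexosamine use, differed by 0.17 (SE 0.083) and 0.14 (SE 0.079). Limma adjusted p-values of these 12 genes were 0.172 to 0.559. Among them UGP2 (2.64 in control), UAP1 (1.98) and SHMT2 (4.03) are not known to lie above background.

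**Figure D5:**
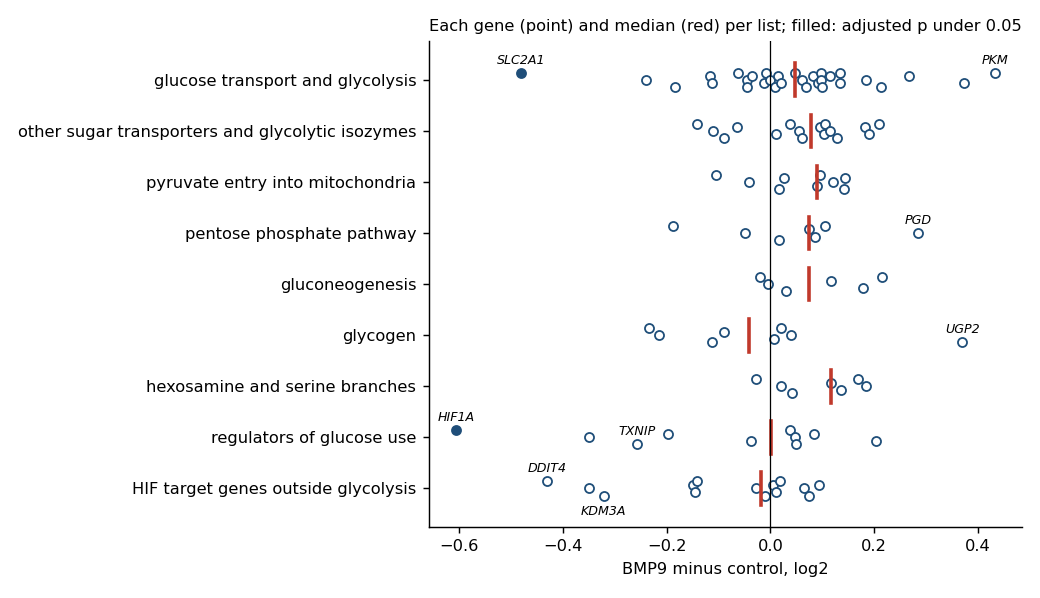
BMP9 minus control on the log2 scale (horizontal axis) for each gene of the 31 members (top row) and of 8 further lists, with the median of each list as a red bar; a filled point had a limma adjusted p under 0.05. SLC2A1 and HIF1A are the only filled points, and all 9 medians lie between -0.041 and 0.12.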

How the data were processed

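Values were deposited on a log2 scale, 1 per probe set and sample, and the authors used RMA (background subtraction, quantile normalisation, probe-set summary) per the submitters' processing notes; its version is not given in the sources used here, and the log base was taken from the range, 1.38 to 13.6. Of 49395 probe sets, 102 were array controls, 1832 had several symbols and 2473 none, and these were left out of the gene and probe-set comparisons. The SEs and adjusted p printed for GAPDH control probe sets and for shared probe sets come from a separate limma fit over all 49395 probe sets. The groups were compared by limma 3.58.1 (R 4.3.3, lmFit and eBayes, no covariate) over all 18132 genes, and separately over all 44988 single-gene probe sets, with Benjamini-Hochberg adjustment, a threshold of 0.05 and no filter. The script was tested on simulated data. The number of arrays limits the precision; the median SE was 0.087. Values were given per array for the 12 members with the smallest p, and differences for the 2 genes with the smallest p in each further list, plus TXNIP and HIF1A per array; other probe sets of these genes were described after their values were seen. Members and lists were chosen with earlier results of these data known. Alternatives covered the replicate block, normalisation, dim probe sets, probe-set choice, the prior and each array left out; 1 poly-A scaling was added after seeing the data. Samples were not treated as paired, since the titles do not say whether same-numbered samples belong together. Figures were drawn with matplotlib 3.10.9.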

Additional observations from a re-analysis of the deposited data

How the results depend on the processing

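The count of members called (1 on the deposited scale, SLC2A1) was kept with quantile normalisation, median centring and no shared probes. It was 0 with the replicate block (SLC2A1 limma adjusted p = 0.0599; probe sets called 0), although same-numbered samples did not deviate together (r = 0.0038, 0.046 and -0.021), and with averaged probe sets. It was 2 of 19 tested with a minimum mean of 5 (SLC2A1 and PGK1) and 2 of 9 with one of 7 (PGK1 and PKM, SLC2A1 not being tested). With the trend and robust prior it was 2 of 31 (SLC2A1 and PGK1), and each of these settings called 4 probe sets. Over all genes, 102 rose and 165 fell of 6744 with the minimum of 5, and 97 and 150 of 1216 with that of 7. With the prior 103 rose and 182 fell of 18132, beside 42 and 82 on the deposited scale. Fewer genes were tested under the minimums, and for the prior the cause was not tested. Leaving out 1 array gave 0 to 1 genes and 0 to 1 probe sets, and medians from 0.00587 to 0.0817. Scaling to spiked-in controls adds a shift to every gene. Hybridisation scaling called 11 members (34 probe sets, median 0.26) and 4843 of all genes higher. Poly-A scaling called 28 (86, median 0.52) and 16288 of all genes. Its second probe-set version called 30 (91, median 0.65) and 17425 of all genes, so such calls say little about a member. Of members negative on the deposited scale, these were positive with both poly-A versions in turn: SLC2A8 (0.36, 0.49), SLC2A12 (0.47, 0.60), ALDOA (0.44, 0.57), ALDOC (0.43, 0.56), PGAM1 (0.43, 0.56), ENO2 (0.46, 0.59), ENO3 (0.41, 0.54), LDHA (0.47, 0.59), LDHB (0.36, 0.48), HK1 (0.24, 0.36) and PDK1 (0.29, 0.42). SLC2A1 was positive with the second alone (-0.0056, 0.12). Without detection calls, dim probe sets bound no change.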

Other observations

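Probe sets that share a member with another gene belong to no comparison above and are given as values. Of the 5 annotated to SLC2A3 and SLC2A14 together, one read 3.43, 3.45 and 3.30 in control and 3.10, 3.12 and 3.18 with BMP9, all lower. Its difference was -0.26 (SE 0.079), with a limma adjusted p = 0.244 in a separate fit over all 49395 probe sets. The brightest of them read 4.62, 5.16 and 4.86 in control and 4.65, 4.83 and 4.85 with BMP9, and the other 3 differed by -0.037 to 0.095. A probe set shared by ENO1 and TMEM11 differed by -0.26 (SE 0.11) with overlap. A probe set shared by ENO1 and EDARADD went from 7.61 ± 0.073 to 7.63 ± 0.20 (SD, n = 3), and one shared by PFKFB4 and UCN2 from 4.58 ± 0.013 to 4.59 ± 0.18.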
